A study of Mus musculus with 12 samples.

Results

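The genes described here encode brakes on mTORC1, the protein kinase complex that drives growth and protein synthesis, or on translation downstream of it. They are the sestrins Sesn1, Sesn2 and Sesn3, Ddit4 and its relative Ddit4l, the mTOR-binding inhibitor Deptor, the tuberous sclerosis genes Tsc1 and Tsc2, and the repressors of cap-dependent translation Eif4ebp1 and Eif4ebp2. They were taken by gene symbol, and all 10 were found among the 29486 genes of the deposited table. Total polyadenylated RNA was sequenced from splenic B cells of C57BL/6Babr mice, isolated with a B-cell isolation kit, in 12 libraries that the methods of the study call biological replicates, 4 per group. All cells were activated with LPS, a bacterial lipopolysaccharide that makes B cells grow and divide, at 10 µg/ml, and no group without LPS was analysed here. The LPS group (4 libraries) received LPS alone for 48 h. The LE group (4 libraries) received LPS for 48 h and etoposide, a topoisomerase II poison that breaks DNA, at 20 µM for 4 h. The LEKU group (4 libraries) received LPS for 47 h, then KU55933, an inhibitor of the DNA damage kinase ATM, at 10 µM for 1 h, and then the same dose and time of etoposide. The methods give an age of 8 to 12 weeks for the mice of the study as a whole. It is not stated in the labels if the LPS cells were kept for those 4 h too, and there was no group with KU55933 alone, so that the effect of the inhibitor in undamaged cells cannot be told apart from its effect under etoposide. Each group also has Illumina indexes of its own, which cannot be told apart from the treatment.

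A limit of the table governs every value below. Within each group the 4 columns differed by a constant factor for all genes, with a largest departure of 1.4e-14 on the log2 scale, so the table holds a fitted level per gene and group and no spread between replicates. No test over replicates could be run on these levels, and no error or p-value is given. Of the authors' own comparison tables, the mean signal alone was used, for a further scaling. A level is the deposited normalised count averaged over the 4 columns of a group and scaled between groups by the median of ratios over genes. Genes with a mean level of at least 10 over the 3 groups were compared (14973 genes), and a difference past 1.5-fold was counted, beside the share of all compared genes past it. All 10 genes passed that filter, Ddit4l through its LE and LEKU levels alone. Scaling by a constant moves all log2 folds of a comparison together: the columns as deposited moved the median of all genes to 0.31 in LE against LPS, -0.13 in LEKU against LE and 0.25 in LEKU against LPS, and library totals moved it to 0.18 in the last. The columns as deposited are not scaled between groups and still carry the library factors. Group factors in LPS, LE and LEKU were 0.882, 1.10 and 1.03 by the median of ratios. From the authors' mean counts they were 0.879, 1.10 and 1.03. In units of 1000000 normalised counts, the columns summed to 20.7 to 23.9 in LPS, 22.5 to 30.6 in LE and 20.4 to 25.1 in LEKU. B-cell markers were abundant, with the summed level of Cd79a, Cd79b, Ms4a1, Pax5 and Cd22 at 104607 in LPS, 55508 in LE and 53252 in LEKU. The 6 T-cell markers (11.1 to 22.8, none past the filter) and the 4 neutrophil markers (2.16 to 15.1, none past it) were near 0, while 5 of 6 macrophage markers (417 to 472) and 2 of 5 red blood cell markers (108 to 216) passed. The 5 plasmablast markers summed to 24962, 26080 and 16101. The part of these cell types in the results below was not tested, and fewer cells of a type and less RNA per cell cannot be told apart in bulk RNA.

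mTORC1 is switched on at the lysosome by the small GTPase Rheb, and amino acids bring it there through the Rag GTPases. The Tsc1-Tsc2 complex turns Rheb off, and Ddit4 (also known as Redd1) and Ddit4l (Redd2) act through that complex. Sestrins bind GATOR2 and so hold back the Rag branch, and Sesn2 is a leucine sensor. Deptor binds mTOR itself, and the 4E-BP proteins are the substrates through which mTORC1 releases the cap-binding protein eIF4E. Sesn1, Sesn2 and Ddit4 are known targets of p53, Sesn2, Ddit4 and Eif4ebp1 of the integrated stress response factor Atf4, Ddit4 also of hypoxia and glucocorticoids, and Sesn1 and Sesn3 of FoxO factors.

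The first comparison asked which of these brakes differ in B cells with damaged DNA. With etoposide, 3 of the 10 genes were past 1.5-fold higher than in LPS, namely Ddit4l, Sesn2 and Ddit4, against 21.0% of all compared genes, and none was past 1.5-fold lower, against 16.2% (37.1% in either direction). The other 7 lay between 0.769-fold and 1.34-fold. The median log2 fold of the 10 was 0.30, beside -0.02 for all compared genes. With library totals, quantile normalisation and the columns as deposited, 24.2%, 16.9% and 32.3% of all genes were past 1.5-fold higher and 12.2%, 21.4% and 7.50% lower, and with the last of these Deptor, Tsc2 and Eif4ebp2 were also past it (log2 0.75, 0.59 and 0.65).

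**Figure D1:**
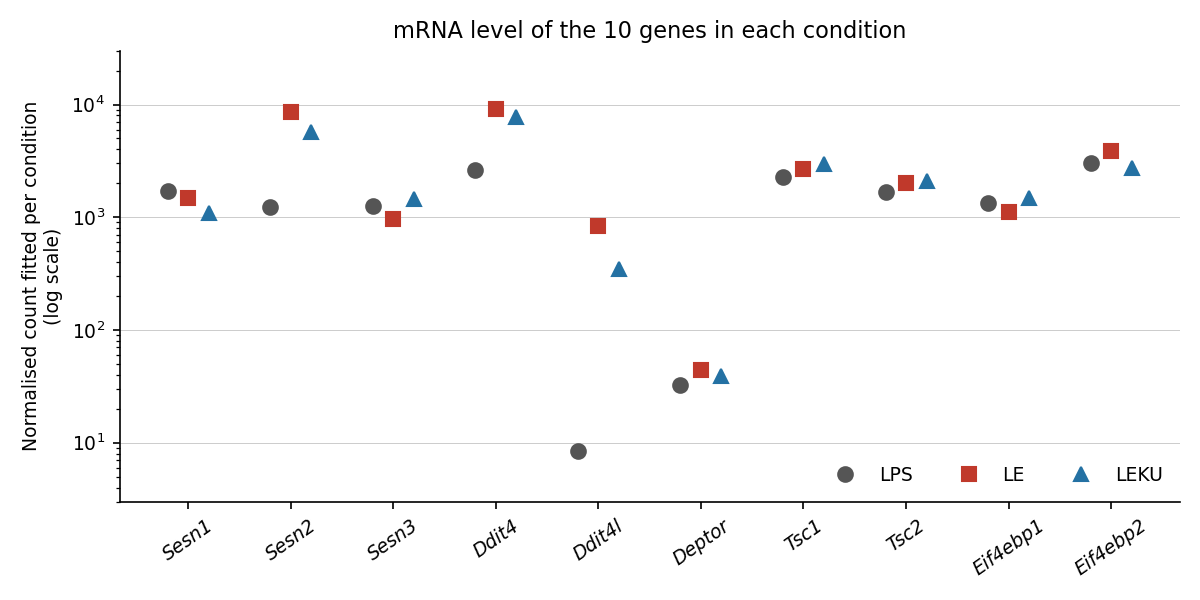
Level of each gene in each group (normalised count fitted per condition, log axis; circles LPS, squares LE, triangles LEKU, each point a group level with no replicate spread). Sesn2, Ddit4 and Ddit4l stand well above their LPS points in both etoposide groups, Ddit4l from 8.36 to 836 and 345, while the points of the other 7 genes lie closer together, Sesn1 being past 1.5-fold lower in LEKU than in LPS.

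The sequence just before the start of the 3 inducible genes, and before an inner start of Sesn1, is shown because these are the genes with the largest differences, with Sesn1 as a sestrin known as a p53 target that was not higher with etoposide. The windows are RefSeq promoters on GRCm38.p6, 250 bases before the RefSeq start on the gene's strand. Bases at the end of a window that lie in an annotated exon (64 for Ddit4 and 45 for Sesn2) were searched but are not printed. Positions of matches are counted from the RefSeq start. Capitals mark matches, on either strand, to 6 motifs: a p53 half-site (searched by name), the C/EBP-ATF response element TGATGNAA, the hypoxia motif ACGTG, the FoxO motif GTAAACA, the CCAAT box CCAAT and the GC box GGGCGG.
Sesn2 (chr4:132510502-132510706, minus strand): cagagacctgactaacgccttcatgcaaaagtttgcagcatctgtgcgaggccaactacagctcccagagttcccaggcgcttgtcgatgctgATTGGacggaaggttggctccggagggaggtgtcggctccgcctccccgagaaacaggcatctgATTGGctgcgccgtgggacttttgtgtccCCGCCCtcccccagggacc
Ddit4 (chr10:59951835-59952020, minus strand): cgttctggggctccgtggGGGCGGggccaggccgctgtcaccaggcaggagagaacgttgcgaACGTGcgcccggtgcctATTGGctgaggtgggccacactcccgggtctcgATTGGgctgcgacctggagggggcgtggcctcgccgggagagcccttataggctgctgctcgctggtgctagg
Ddit4l (chr3:137623422-137623671, plus strand): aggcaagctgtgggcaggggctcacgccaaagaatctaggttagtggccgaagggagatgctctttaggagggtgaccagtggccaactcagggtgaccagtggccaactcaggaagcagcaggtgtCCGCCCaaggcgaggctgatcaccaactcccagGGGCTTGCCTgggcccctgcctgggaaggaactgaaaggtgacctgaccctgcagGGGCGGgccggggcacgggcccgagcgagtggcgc
Sesn1, inner start (chr10:41887189-41887438, plus strand): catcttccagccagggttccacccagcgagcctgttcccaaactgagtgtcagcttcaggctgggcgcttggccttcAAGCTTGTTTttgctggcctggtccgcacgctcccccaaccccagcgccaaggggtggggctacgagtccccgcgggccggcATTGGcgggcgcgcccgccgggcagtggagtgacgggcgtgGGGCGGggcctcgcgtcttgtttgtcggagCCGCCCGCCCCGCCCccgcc
A p53 half-site match was found in Ddit4l (GGGCTTGCCT, 90 to 81 bases before the start) and in the inner Sesn1 window (AAGCTTGTTT, 173 to 164 bases before the start), and such a match occurs in 7.13% of 32851 mouse promoters of this length. The hypoxia motif was found in Ddit4 (ACGTG, 187 to 183 bases before the start) and Eif4ebp2, against 16.6% of promoters. Of the 8 genes with a promoter in the table, 6 held a GC box (32.7% of promoters) and 4 a CCAAT box (33.8%). The C/EBP-ATF and FoxO motifs, present in 3.45% and 3.17% of promoters, were in none of the 9 windows of these genes. Each window was searched over its full 250 bases, and the outer Sesn1 window lies wholly in annotated exon. Matches overlap in the GC-box run of Sesn1. A match describes letters in this window and says nothing of factor binding.

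Sesn2 (ENSMUSG00000028893, GRCm38 chromosome 4, 132492032 to 132510501, minus strand) was the sestrin with the large difference. Its deposited values were 1002, 1112, 1156 and 1042 in the LPS columns, 8243, 9239, 11190 and 8956 in LE, and 5174, 5835, 6251 and 6354 in LEKU. Within a group these columns vary only through the library factor, so their lack of overlap between groups carries no information on replicate error. After scaling, its level was 1222 in LPS and 8550 in LE, a 6.99-fold difference (log2 2.81), and 445 of the 14973 genes had a larger ratio.

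Ddit4 (ENSMUSG00000020108, chromosome 10, 59949669 to 59951834, minus strand) was already abundant in LPS cells. Its deposited values were 2173, 2410, 2507 and 2259 in LPS, 8786, 9847, 11926 and 9546 in LE, and 7022, 7918, 8483 and 8622 in LEKU. Its level was 2651 in LPS and 9113 in LE, a 3.44-fold difference (log2 1.78), and 1010 genes had a larger ratio.

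Ddit4l (ENSMUSG00000046818, chromosome 3, 137621612 to 137628333, plus strand) was near 0 with LPS alone. Its deposited values were 6.85, 7.61, 7.91 and 7.13 in LPS, 806, 903, 1094 and 876 in LE, and 312, 352, 377 and 383 in LEKU. The level was 8.36 in LPS and 836 in LE, a 99.9-fold difference (log2 6.64), and only 5 compared genes had a larger ratio. The low LPS level rests on about 29.5 normalised counts in all, so counting error weighs more on this fold than on the others. With a pseudocount or another scaling the log2 fold ranged from 5.98 to 6.96.

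The other 2 sestrins were lower in LE than in LPS within the 1.5-fold limits. Both are stress-responsive relatives of Sesn2. Sesn1 (ENSMUSG00000038332, chromosome 10, 41809935 to 41908424, plus strand) was at 1718 in LPS and 1487 in LE, 0.866-fold, and its sign turned (log2 0.11) when the columns were used as deposited. Sesn3 (ENSMUSG00000032009, chromosome 9, 14275067 to 14333101, plus strand) was at 1251 and 962, 0.769-fold. Per kilobase of exon, the sestrin mRNA pool therefore was made up differently: Sesn2 was 40.7% of the summed sestrin level in LPS, 84.9% in LE and 81.7% in LEKU, while Sesn1 went from 49.9% to 12.9% and 13.6%, and Sesn3 from 9.47% to 2.17% and 4.68%. By the longest transcript the Sesn3 shares were 14.6%, 3.57% and 7.55%, and those of Sesn2 37.4%, 83.2% and 78.7%. The summed level per kilobase was 865 in LPS and 2897 in LE, 3.35-fold. These shares and the log2 ratio of Sesn2 to Sesn1, higher by 3.01 in LE, do not depend on how groups were scaled by a factor.

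**Figure D2:**
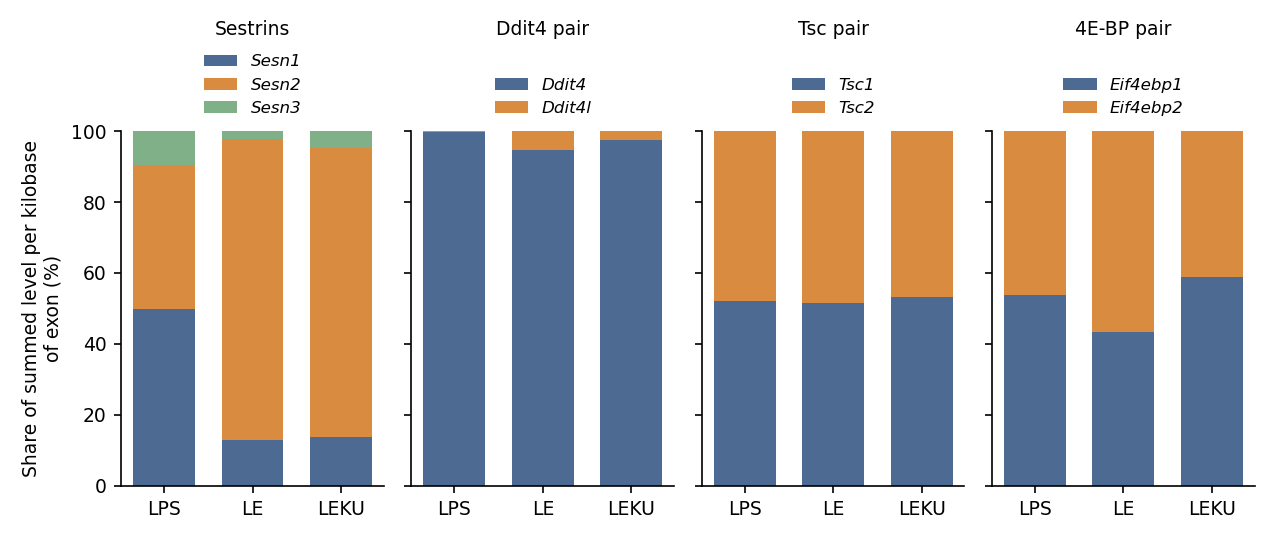
Share of the summed level per kilobase of exon (%) held by each gene of 4 families in LPS, LE and LEKU, each bar summing to 100%. Sesn2 fills 40.7% of the sestrin bar in LPS and 84.9% in LE, the Tsc1 and Tsc2 shares hardly differ, and the Eif4ebp1 share is lowest in LE (43.4%).

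Ddit4 and Ddit4l together held 1513 per kilobase in LPS and 5479 in LE. Ddit4l was 0.190% of that pair in LPS, 5.23% in LE and 2.60% in LEKU, so Ddit4 remained by far the more abundant of the pair per length in every group. Per kilobase of exon the order of the 10 genes in LPS was Ddit4 (1511), Eif4ebp1 (614), Eif4ebp2 (529), Sesn1 (431), Sesn2 (352), Tsc1 (191), Tsc2 (175), Sesn3 (81.9), Deptor (3.68) and Ddit4l (2.87). In LE, Ddit4 (5193) was followed by Sesn2 (2460), and Ddit4l (287) lay above Tsc1 (226), Tsc2 (211), Sesn3 and Deptor. Per kilobase of the longest transcript, Ddit4l (307) lay below Tsc1 (346) and Tsc2 (324) in LE, so its place beside these genes depends on the length used. With no spread between replicates, neighbours such as Tsc1 and Tsc2 cannot be ordered with confidence. Ddit4l went from the 5.39th percentile of compared genes per kilobase to the 68.3rd in LE and the 45.7th in LEKU, and Sesn2 from the 72.0th to the 96.9th and 95.4th.

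The TSC genes were slightly higher in LE. Tsc1 (ENSMUSG00000026812, chromosome 2, 28641228 to 28691167, plus strand), which stabilises the complex, was at 2259 and 2668, 1.18-fold. Tsc2 (ENSMUSG00000002496, chromosome 17, 24595816 to 24632630, minus strand), the subunit that acts on Rheb, was at 1686 and 2033, 1.21-fold. Tsc2 shares 693 exon bases (7.20% of its exons) with Pkd1 on the opposite strand, whose level was 1937 in LPS and 3420 in LE, and the strand setting of the counting is not given in the sources used here. The ratio of Tsc1 to Tsc2 was 1.09 in LPS and 1.07 in LE.

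Deptor (ENSMUSG00000022419, chromosome 15, 55112317 to 55259271, plus strand) was scarce, at 32.6 in LPS and 43.9 in LE, 1.34-fold, and its sign turned (log2 -0.07) with quantile normalisation. The 4E-BP genes differed in opposite directions within the 1.5-fold limits. Eif4ebp1 (ENSMUSG00000031490, chromosome 8, 27260329 to 27276674, plus strand) was at 1349 in LPS and 1120 in LE, 0.830-fold, and turned to a log2 fold of 0.05 with the columns as deposited. Eif4ebp2 (ENSMUSG00000020091, chromosome 10, 61428491 to 61452661, minus strand) was at 3060 and 3846, 1.26-fold. Their summed level per kilobase was 1144 in LPS, 1175 in LE and 1144 in LEKU, while the ratio of Eif4ebp2 to Eif4ebp1 went from 0.861 to 1.30 and 0.700.

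The second comparison asked what differs when KU55933 is given before etoposide. ATM activity was not measured in these libraries, so an effect through ATM was not tested. This comparison shares its LE libraries with the first, so an error in an LE level moves the 2 log2 folds in opposite directions. In LEKU against LE, none of the 10 genes was past 1.5-fold higher (7.15% of all genes were) and 1 was past 1.5-fold lower (11.0% of all genes were, and 18.2% in either direction), Ddit4l, at 345 against 836 (2.42-fold lower, log2 -1.28). Sesn2 lay just inside the limit at 5727 against 8550, 1.49-fold lower, and passed it with the trimmed mean of M values (log2 -0.60) and with the columns as deposited (-0.67). Sesn3 lay just inside it on the other side, at 1442 against 962 (1.499-fold, log2 0.58), and passed it with library totals and with quantile normalisation (0.63 in both). Ddit4 was at 7772 against 9113, 0.853-fold.

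The remaining genes were within 1.5-fold under KU55933. Sesn1 was at 1093 against 1487, 0.735-fold. Eif4ebp1 was at 1478 against 1120, 1.32-fold, and Eif4ebp2 at 2725 against 3846, 0.709-fold. Each 4E-BP gene thus lay on the opposite side of 0 from its difference with etoposide, which shares the LE level. For Eif4ebp1 this did not hold with the columns as deposited (log2 0.05 with etoposide and 0.31 in LEKU against LE). The log2 ratio of Eif4ebp2 to Eif4ebp1 was higher by 0.60 in LE than in LPS and fell by 0.90 in LEKU against LE. Tsc1 (1.10-fold), Tsc2 (1.04-fold, its sign turning to -0.04 with the columns as deposited) and Deptor (0.888-fold) differed least. The median log2 fold of the 10 genes was -0.20, beside -0.04 for all genes. With quantile normalisation and the columns as deposited, 9.46% and 5.26% of all genes were past 1.5-fold higher and 9.25% and 14.5% lower, and with the last of these Eif4ebp2 was also past it (log2 -0.59).

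**Figure D3:**
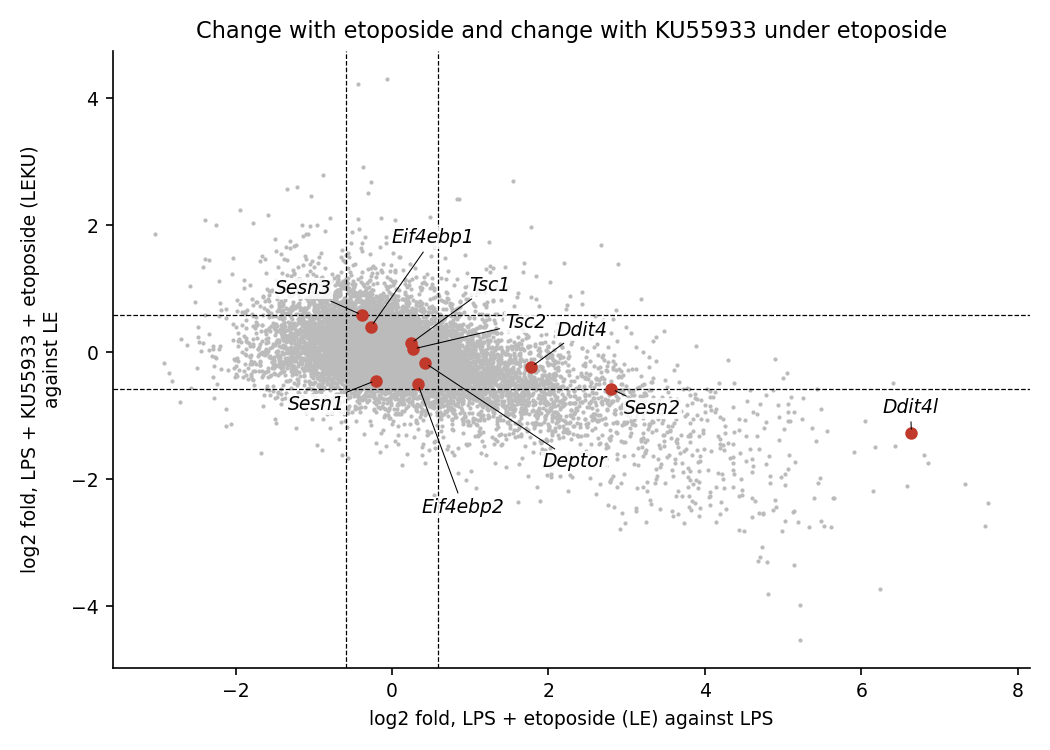
Log2 fold of LE against LPS (x axis) and of LEKU against LE (y axis) for all compared genes (grey) and the 10 genes (red); dashed lines mark 1.5-fold. Ddit4l lies at 6.64 and -1.28, Sesn2 at 2.81 and -0.58, and Ddit4 at 1.78 and -0.23, and the other 7 genes lie inside the vertical lines.

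The third comparison set LEKU against LPS, which shares its LPS libraries with the first and its LEKU libraries with the second. The same 3 genes were past 1.5-fold higher as with etoposide alone, against 19.9% of all genes, with Ddit4l at 41.3-fold, Sesn2 at 4.69-fold and Ddit4 at 2.93-fold. Sesn1 alone was past 1.5-fold lower, at 0.636-fold, against 15.7% of all genes (35.6% in either direction), and was within the limit with library totals (log2 -0.49) and with the columns as deposited (-0.43). The difference in level from LPS was, in LEKU, 61.5% of that in LE for Sesn2, 79.3% for Ddit4 and 40.7% for Ddit4l, with the same LPS libraries on both sides. Tsc1 (1.30-fold), Tsc2 (log2 0.32) and Deptor (1.19-fold) were higher in both etoposide groups than in LPS, Deptor with its sign turned (log2 -0.07 and -0.08) under quantile normalisation. Eif4ebp2 was at 0.891-fold in LEKU, with its sign turned under quantile normalisation (0.02) and with the columns as deposited (0.06). With library totals, quantile normalisation and the columns as deposited, 26.0%, 16.7% and 29.0% of all genes were past 1.5-fold higher and 10.6%, 17.2% and 9.14% lower, and with the last of these Tsc1 was also past it (log2 0.60).

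The rest of the pathway was described with lists written from general knowledge, with earlier results of these data known. Counts of genes past the fold differed by at most 1 gene per list and comparison with the trimmed mean of M values, 2 with library totals or quantile normalisation, and 3 with the columns as deposited. Genes named from a list are the extreme ones past the fold, and where a count of 5 or fewer left others, these were added after their values were seen. List counts are to be read beside the shares of all genes past 1.5-fold. These were 21.0% higher and 16.2% lower in LE against LPS, and 7.15% and 11.0% in LEKU against LE. Over 8 lists of mTOR pathway genes (70 genes, 69 compared), 8 genes (11.6%) were past 1.5-fold higher in LE against LPS and 10 (14.5%) lower, beside 21.0% and 16.2% of all genes, with a median log2 fold of -0.13. That balance turned with library totals (13 higher and 9 lower, beside 24.2% and 12.2% of all genes) and with the columns as deposited (20 and 7, beside 32.3% and 7.50%), and was 9 and 12 with quantile normalisation. With KU55933, 4 (5.80%) were higher and 4 (5.80%) lower, beside 7.15% and 11.0%, with a median of 0.03. The kinase Mtor was at 3075 in LPS, 3028 in LE and 2846 in LEKU.

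Among the 10 mTORC1 and mTORC2 subunits, none was past 1.5-fold higher in LE and 2 were lower, the mTORC2 subunit Mapkap1 (log2 -0.97) and the mTORC1 scaffold Rptor (-0.77, or -0.45 and within the limit with the columns as deposited). Between LEKU and LE, Prr5l was higher (1.08, from 16.0 to 33.9) and Prr5, another mTORC2 subunit, lower (-0.71). None of the 3 genes Rheb, Rhebl1 and Tbc1d7 was past the fold in either comparison. Of the 11 GATOR1, KICSTOR and GATOR2 genes through which sestrins act, 1 was higher in LE, the GATOR1 subunit Nprl3 (0.66), and 2 lower, the GATOR2 subunit Wdr59 (-0.92) and the KICSTOR subunit Kptn (-0.84, or -0.52 and within the limit with the columns as deposited), and none was past the fold in LEKU against LE.

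Of 12 Rag, Ragulator and folliculin genes, 2 were higher in LE, the GTPase Rragd (1.39) and Flcn (1.15, from 1281 to 2852), and 1 lower, Rragb (-1.19), which was also the gene past the fold in LEKU against LE (0.77). Of 5 amino acid sensor genes, the arginine sensor Castor1 (1.23) and Bmt2, the sensor of S-adenosylmethionine (1.01), were higher in LE, and Bmt2 was lower in LEKU against LE (-0.73). Of 9 genes of S6 kinases, cap binding and the further 4E-BP, 1 was lower in LE, Eif4e itself (-0.67, from 3468 to 2178, not past 1.5-fold with library totals, quantile normalisation or the columns as deposited), and Eif4e3 was lower in LEKU against LE (-0.73).

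AMPK is the energy-sensing kinase that restrains mTORC1. Of 8 compared genes of AMPK and its partners, 3 were past 1.5-fold higher in LE, beside 21.0% of all genes. The list median was 0.47. Those higher were the catalytic subunit Prkaa2 (2.52), the autophagy kinase Ulk1 (2.47, from 919 to 5094) and the regulatory subunit Prkab2 (0.91). The count was 4 with library totals (beside 24.2% of all genes) and 5 with the columns as deposited (beside 32.3%). Under KU55933, Ulk1 was lower (-0.69) and Prkab2 higher (0.90). Among the PI3K and Akt genes, none was past 1.5-fold higher in LE, and those lower included the lipid phosphatase Inpp5d (-1.21), the PI3K inhibitor Pik3ip1 (-1.07) and the lymphocyte PI3K subunit Pik3cd (-0.92). Pik3ip1 was also the gene past the fold in LEKU against LE (0.87).

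Lists for the factors known to control these brakes were described in the same way. All 16 p53 targets were past 1.5-fold higher in LE (median 2.90, with Perp at 5.44 and Plk2 at 5.25), beside 21.0% of all genes. In LEKU against LE, 10 were past it lower (median -0.64, Perp at -2.06), beside 11.0% of all genes, and 8 with library totals or quantile normalisation. As the list was written with earlier results known, these counts are no independent result. The log2 folds of Sesn2 and Ddit4 in LE (2.81 and 1.78) lay within the range of the 16 (1.37 to 5.44). That of Ddit4l (6.64) lay above it and that of Sesn1 (-0.21) below it. In LEKU against LE, Sesn2, Ddit4, Ddit4l and Sesn1 (-0.58, -0.23, -1.28 and -0.44) lay within the range of the 16 (-2.06 to 0.35). That range is wide, as the 5th and 95th percentiles of all compared genes were -0.91 and 0.69. Sesn2, Ddit4 and Ddit4l were picked for being past 1.5-fold in LE. Control of these genes by p53 was not tested.

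The 8 integrated stress response targets showed another order. In LE, 1 was past 1.5-fold higher, Ppp1r15a (1.46), beside 21.0% of all genes. Lower were 5, beside 16.2% of all genes, namely Chac1 (-1.48), Trib3 (-1.08), Asns (-0.98), Atf5 (-0.95) and Atf4 (-0.67). The list median was -0.81. With library totals, quantile normalisation or the columns as deposited, 4 were lower. In LEKU against LE, all 8 were past it higher (median 1.17, range 0.80 to 2.00, beside 7.15% of all genes), with Atf5 at 2.00 and Trib3 at 1.87. This held for all 8 under each of the 5 scalings. The list too was written with earlier results known, so its counts are no independent result. Both comparisons share the LE level, so a low LE level moves the second log2 fold up. The level of Atf4, the transcription factor of this response, was 8955 in LPS, 5632 in LE and 11256 in LEKU. Eif4ebp1 likewise had its lowest level in LE and its highest in LEKU, within 1.5-fold in each comparison. With the columns as deposited, the Eif4ebp1 level in LE was above that in LPS. Sesn3 had the same order (1251 in LPS, 962 in LE and 1442 in LEKU), whereas Sesn2 and Ddit4 had their highest level in LE. Control of these genes by Atf4 was not tested.

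Of 8 hypoxia targets none was past 1.5-fold in LE against LPS (median -0.21), and 1 was higher in LEKU against LE, Vegfa (0.87). For the counts of this paragraph, the shares of all genes were 21.0% higher and 16.2% lower in LE against LPS. In LEKU against LE they were 7.15% and 11.0%. Of 5 glucocorticoid targets, 1 was higher in LE, Dusp1 (2.29-fold), and 2 lower, Fkbp5 and Klf9 (-0.63 and -0.62; neither was past 1.5-fold with library totals or with the columns as deposited). In LEKU against LE, 2 were higher, Tsc22d3 (1.39) and Klf9 (1.01). Among FoxO factors and targets, 3 were higher in LE, Foxo3 (0.96), Txnip (0.72) and Irs2 (0.68), and those lower included Klf2 (-2.20), Foxo1 (-0.86) and Cdkn1b (-0.75). In LEKU against LE, those higher included Irs2 (0.79), Klf2 (0.77), Cdkn1b (0.77) and Foxo4 (0.65), and 2 were lower, Txnip (-0.89) and Foxo3 (-0.61, which with library totals and with quantile normalisation was not past 1.5-fold).

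**Figure D4:**
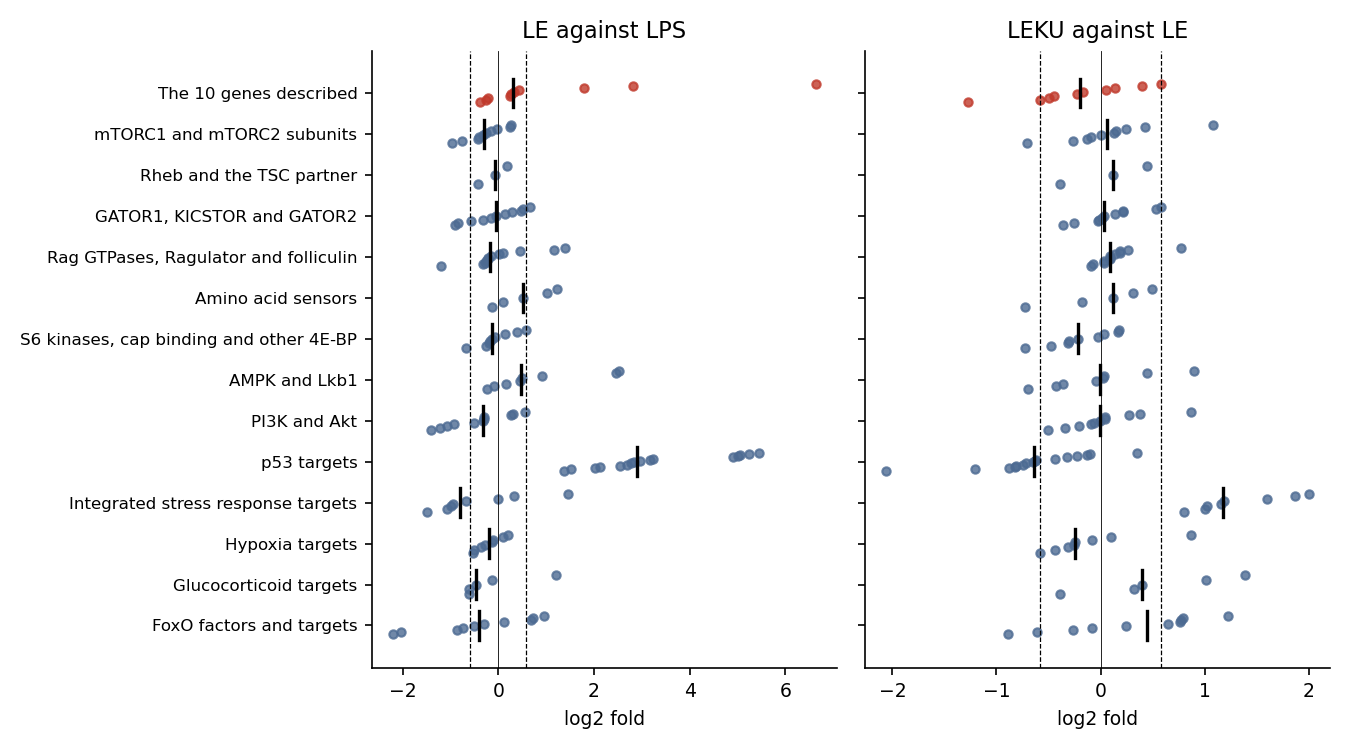
Log2 fold of each compared gene (points) and the median (bar) for the 10 genes and 13 lists, LE against LPS (left) and LEKU against LE (right); dashed lines mark 1.5-fold. All 16 p53 targets lie right of the upper line in LE, and all 8 integrated stress response targets do so in LEKU against LE.

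Genes with the pattern most like that of each inducible brake were found over the 3 group levels, by Euclidean distance in the plane of the 2 log2 folds, among 10882 genes with a mean level of at least 100. They were Trp53inp1 (distance 0.045), Adam8 (0.064) and Col11a2 (0.069) for Sesn2, AA415398 (0.0093), Chchd7 (0.040) and Slc2a8 (0.044) for Ddit4, and Slc4a11 (0.29), Mcam (0.37) and 1700007K13Rik (0.51) for Ddit4l. The genes nearest Ddit4l were likewise close to 0 in LPS, at 12.7, 10.9 and 5.79, and at 1103, 1215 and 669 in LE. Their low LPS levels follow largely from choosing genes with so large a ratio.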

How the data were processed

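Total mRNA was measured by mRNAseq in 12 libraries, grouped by the sample labels. Per the submitters' processing notes and the methods of the study, the authors trimmed reads with Trim Galore and cutadapt 1.2.1, mapped them to GRCm38 with TopHat2 2.0.12, counted them per gene with HTSeq and fitted DESeq2 1.6.3. The deposited table of normalized counts (a signal that is never negative) was found by check to hold a fitted level per condition times a factor per library, with no value at 0, so that no test over replicates could be run on it and the planned limma fit was not used. Strand settings of the counting are not given in the sources used here. The authors' comparison tables hold a mean, a log2 fold change, its standard error, a Wald statistic and p-values, raw and adjusted. The mean signal alone was used, as the authors' value for a further scaling, and none of their fold changes or p-values.

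Levels were computed in Python 3.11.15 with numpy 2.4.6, pandas 2.3.3 and scipy 1.17.1, and plotted with matplotlib 3.10.9. The 4 columns of a condition were averaged and scaled by the median of ratios over genes with a mean of at least 10. No pseudocount was used. The functions were tested on simulated data. Levels between genes were compared per kilobase of GENCODE M21 exons (GRCm38). The depth limits precision by an unknown amount, since the columns keep no replicate spread. Promoters are RefSeq windows on GRCm38.p6, found for 8 of the 10 genes.

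The genes and lists were chosen with earlier results of these data known. All 10 genes were named, with up to 2 genes past 1.5-fold in each direction per list in LE against LPS and in LEKU against LE, and the 3 nearest genes of each gene past it with etoposide. Alternatives were 4 other scalings, 3 filters, pseudocounts of 1 and 5, folds of 1.25 and 2, and each library left out. A scaling from the authors' mean counts, and the other scalings of the lists, were added after the data were seen. Polysome and iCLIP experiments were not analysed here. Some genes that these rules name are not reported here.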

Additional observations from a re-analysis of the deposited data

How the results depend on the processing

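Ddit4l, Sesn2 and Ddit4 were past 1.5-fold higher in LE and in LEKU against LPS under every scaling, pseudocount and left-out library run, except that Ddit4l was not compared when a level of at least 10 was asked of every condition. The 3 genes past the fold with etoposide became 6 with the columns as deposited, which are not scaled between groups. They became 5 with the looser fold limit, where 1 was lower instead of 0. In LEKU against LE, 0 genes higher became 1 with library totals or quantile normalisation and 2 with the looser limit, and 1 gene lower became 2 with the trimmed mean of M values, 3 with the columns as deposited, 4 with the looser limit and 0 when a level of at least 10 was asked of every condition, since Ddit4l was then left out. In LEKU against LPS, 1 gene lower became 0 with library totals, with the columns as deposited and at 2-fold. Apart from that construction, the cause was not tested. Leaving out each of the 12 libraries moved no count, which follows from the columns of a condition being proportional and says nothing of replicate error. No paired analysis was possible because the columns of a condition differ by a constant factor only. Fitted levels may be moderated, and the table of levels gives no estimate of the spread between replicates. The standard errors in the authors' comparison tables were not used here.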
